A study of Mus musculus with 32 samples.

Results

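The data are 15 of the 32 RNA sequencing libraries of the series: 7 wildtype and 8 Taf4b-deficient libraries of mouse prospermatogonia at E16.5 (embryonic age in days), taken by the genotype and age in their titles. Heterozygous libraries of that age enter only where a fit or a range names them. Prospermatogonia are the germ cells of the fetal testis. Per the labels, all embryos were male, on a C57BL/6 background, and came from matings of mice that were heterozygous for the Taf4b mutation and homozygous for an Oct4-EGFP transgene, so wildtype and deficient embryos alike carried the reporter. GFP-positive cells were sorted by flow cytometry, total RNA was sequenced, and age was counted from the copulatory plug. The structure of the mutant allele is not given in the labels.

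Taf4b encodes a germ cell-enriched relative of TAF4, a subunit of TFIID, the complex that binds core promoters and starts RNA polymerase II transcription. At the ages studied, male germ cells leave the mitotic cycle, shut down the pluripotency genes that they share with their precursors, switch on NANOS2-dependent male differentiation, and build the DNA methylation and piRNA machinery that silences transposons. Nodal and FGF signals are active at the start of that change and decline as it proceeds.

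Taf4b was lower in the deficient group, but not in every library. Counts scaled to library size (CPM) were 241, 243, 308, 133, 122, 129 and 294 in wildtype 1 to 7, and 65.7, 54.5, 61.4, 68.8, 61.8, 50.4, 51.5 and 134 in deficient 1 to 8. Deficient 1 to 7 lay below every wildtype library, whereas the library labelled deficient 8 lay above wildtype 4, 5 and 6. The log2 fold change (deficient minus wildtype) was -1.62 (SE 0.24, adjusted p = 0.00315), and an exact two-sided permutation test on log2 CPM gave p = 0.000777 over 6435 arrangements of single libraries, several of which share a litter. Over means per litter (4 wildtype against 4 deficient) the exact permutation p was 0.0286, the smallest that 70 arrangements can give. Litters that held both genotypes gave a mean to each, and this test ignored that pairing. Without the library labelled deficient 8, which was singled out by its Taf4b level, the log2 fold change was -1.84, a value that this choice makes larger. The 9 heterozygous libraries ran from 54.9 to 182 CPM (median 140), a range that holds wildtype 4 to 6 and the library labelled deficient 8. Transcript was counted in all deficient libraries, so the count does not show whether a functional product was made.

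**Figure D1:**
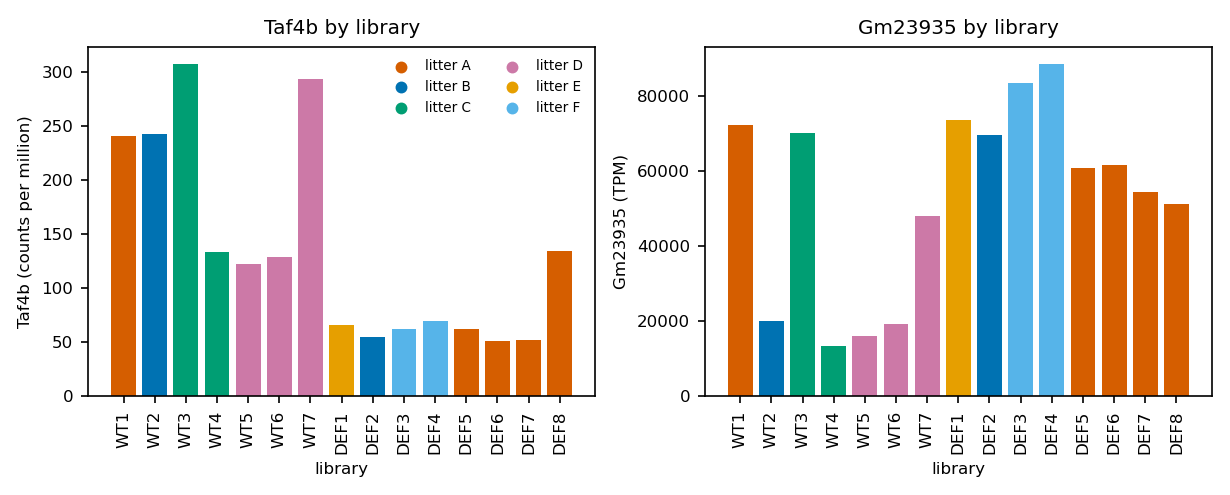
Bars give Taf4b in CPM (left) and the small-RNA locus Gm23935 in TPM (right) for each of the 15 libraries, coloured by litter; WT is wildtype and DEF deficient. Deficient 1 to 7 lie between 50.4 and 68.8 CPM of Taf4b and the library labelled deficient 8 at 134, while Gm23935 lies between 13143 and 19937 TPM in wildtype 2, 4, 5 and 6 and at or above 47854 TPM in all others.

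The litters did not hold the genotypes evenly. Wildtype 1 came from the litter of deficient 5 to 8 (litter A), and wildtype 2 from that of deficient 2 (litter B). Wildtype 3 and 4 (litter C) and wildtype 5 to 7 (litter D) had no deficient littermate, and deficient 1 (litter E) and deficient 3 and 4 (litter F) had no wildtype one. By month of collection, wildtype 1 and 2 were from October, wildtype 3 and 4 from September and wildtype 5 to 7 from May. Deficient 3 and 4 were from May and all other deficient libraries from October. Month and genotype thus overlapped in part. Library totals ran from 19.8 to 25.5 M counts in wildtype and from 17.7 to 22.2 M in deficient libraries, and no 2 libraries were identical. The small-RNA locus Gm23935 ran from 13143 to 72202 TPM in wildtype and from 51145 to 88635 TPM in deficient libraries, and its part in the results was not tested beyond the fits named here. The library labelled deficient 8 also had the lowest share of counts on mitochondrially encoded protein genes (2.21%, against 3.25% to 3.54% in the other deficient libraries) and the highest rRNA share (1.32%, against 0.655% to 0.93%).

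Of 22667 genes tested, 2913 passed an adjusted p of 0.05 (12.9%), 1724 of them higher (7.61%) and 1189 lower (5.25%) in deficient cells. The median size of a called change was 0.71 on the log2 scale, and 774 genes changed by at least 1. The split by direction differed between fits. With 24 libraries 2012 genes were higher and 2091 lower, with litter added 1043 and 1205, and with litter as a random block over 15 libraries 1038 and 1117. Limma on log2(TPM + 1) called 579 higher and 2800 lower, with the median of all genes at -0.108. The genes called and named below kept their direction on the TPM scale. The called genes did not move equally in the deficient libraries. Genes called higher lay a median of 0.95 log2 units above the wildtype mean in deficient 2, and 0.68, 0.82 and 0.92 above it in deficient 5, 6 and 7. The same median was 0.23 in deficient 1, 0.33 in deficient 4 and 0.39 in the library labelled deficient 8. In wildtype 1, the littermate of deficient 5 to 8, it was 0.32, and in the other wildtype libraries it lay between -0.14 and 0.10. Since these genes were chosen in the same libraries, the medians describe the calls and test nothing.

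**Figure D2:**
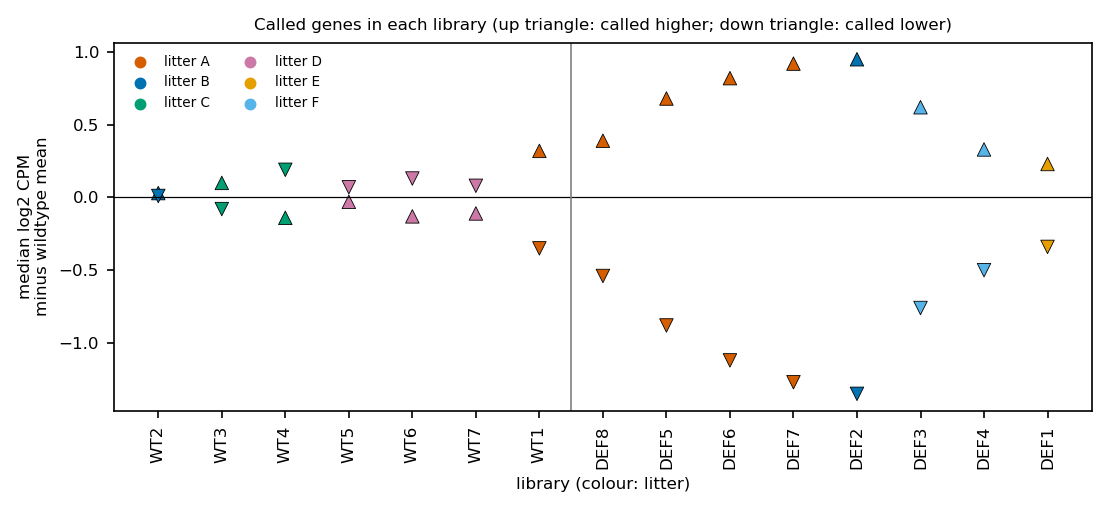
Each pair of triangles gives, for 1 library, the median log2 CPM minus the wildtype mean over the 1724 genes called higher (up triangles) and the 1189 called lower (down triangles); colours mark litters. Deficient 2 and 5 to 7 stand farthest out, and wildtype 1 (0.32 and -0.35) lies beside deficient 1 (0.23 and -0.34).

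How many genes passed depended on how litters were treated. With litter as a covariate over all 24 E16.5 libraries, where heterozygous littermates link the litters, 2248 of 24382 genes passed (9.22%). Of the 2913 genes, 1502 were among them. Over the 15 libraries, where only litters A and B held both genotypes, litter as a covariate left 0 genes (3820 at an unadjusted p under 0.05). Litters A and B alone also left 0, and collection month as a covariate left 44. Summing counts by litter and genotype (4 wildtype against 4 deficient sums) left 1 gene, Taf4b itself, although all 2913 genes kept their direction and 2155 had an unadjusted p under 0.05. Litters A and B gave a sum to each genotype, which that fit did not pair. Taf4b was also the gene left when the 4 wildtype libraries with low Gm23935 (wildtype 2, 4, 5 and 6) were dropped. Wildtype 4, 5 and 6 held the lowest Taf4b of the wildtype group (133, 122 and 129 CPM). Dropping them widens the Taf4b difference, so that result is partly built in. Leaving out litter A, B, C or D left 420, 535, 348 and 4 calls. Leaving out the library labelled deficient 8 raised the calls to 3953 (17.6% of 22418 genes), and leaving out deficient 1 raised them to 5458. Counts and calls below are from the 15-library fit unless a sentence names another. Where a sentence says only "with litter", the 24-library fit with litter as a covariate is meant.

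Pluripotency genes, mitotic genes and replication-dependent histones had the largest shares of members called, nearly all higher. In the pluripotency list 13 of 31 tested members rose and 1 fell, in the mitotic list 25 of 64 rose and 1 fell, and among histone genes 11 of 25 rose and none fell. Their median log2 fold changes were 0.77, 0.55 and 1.06, beside 0.02 over all genes tested. Of 69 histone genes 25 passed the filter on low counts, and members that are low in wildtype could pass through the deficient group, so the histone count and median support no direction by themselves. With no filter the higher counts were 2, 9 and 11. In the 24-library fit with litter the same groups held 8 higher and 1 lower of 31, 19 higher of 64, and 12 higher of 30. With litter as a random block over the 15 libraries (estimated correlation 0.123, limma-voom) they held 1 higher and 1 lower, 11 higher, and 11 higher. No member of any list passed in the fit of libraries with high Gm23935, where the 3 medians were 0.60, 0.36 and 1.02. Other lists kept their median there to unlike degrees. The FGF and Nodal lists stood at 0.30 and 0.31, against 0.37 and 0.39 in the 15-library fit. The Notch, WNT and COMPASS lists stood at 0.04, 0.10 and 0.03, against 0.33, 0.28 and 0.19.

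**Figure D3:**
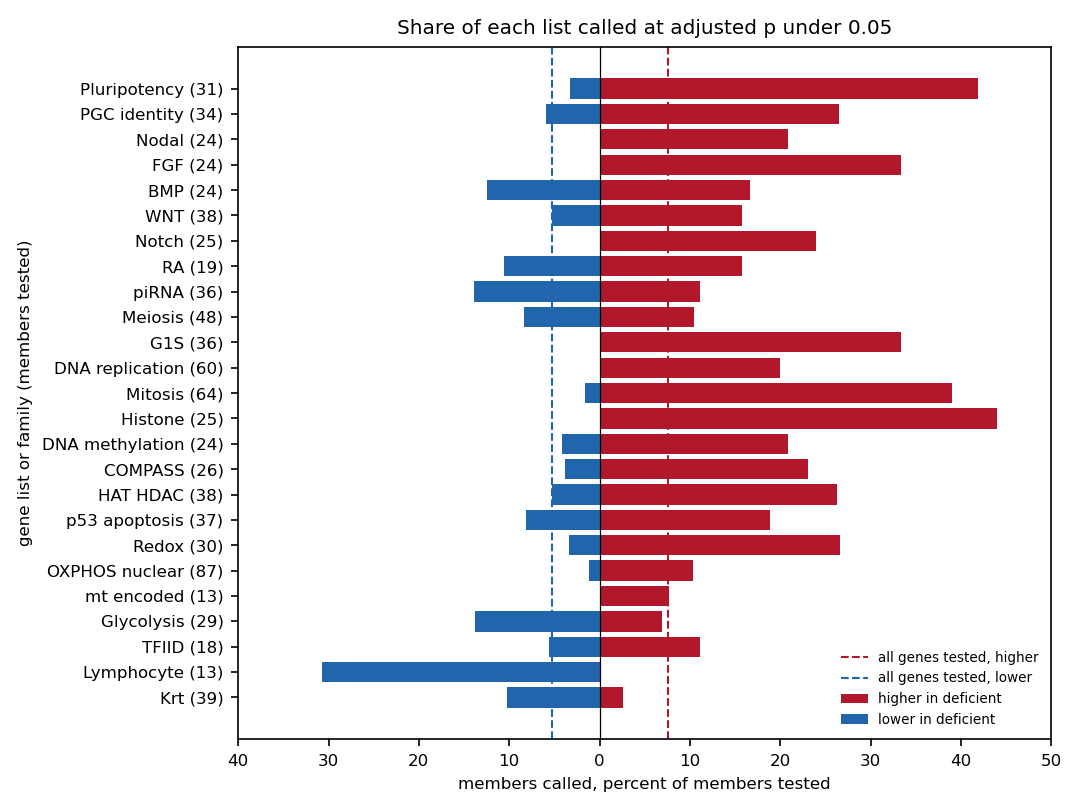
Bars give the percent of tested members of each list called higher (right) or lower (left) in deficient cells, with the number tested in parentheses; dashed lines mark all genes tested, 7.61% higher and 5.25% lower. Pluripotency, mitosis and histone genes reach farthest to the right, and Krt stands for keratins, RA for retinoic acid genes and HAT HDAC for acetyltransferases and deacetylases.

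**Figure D4:**
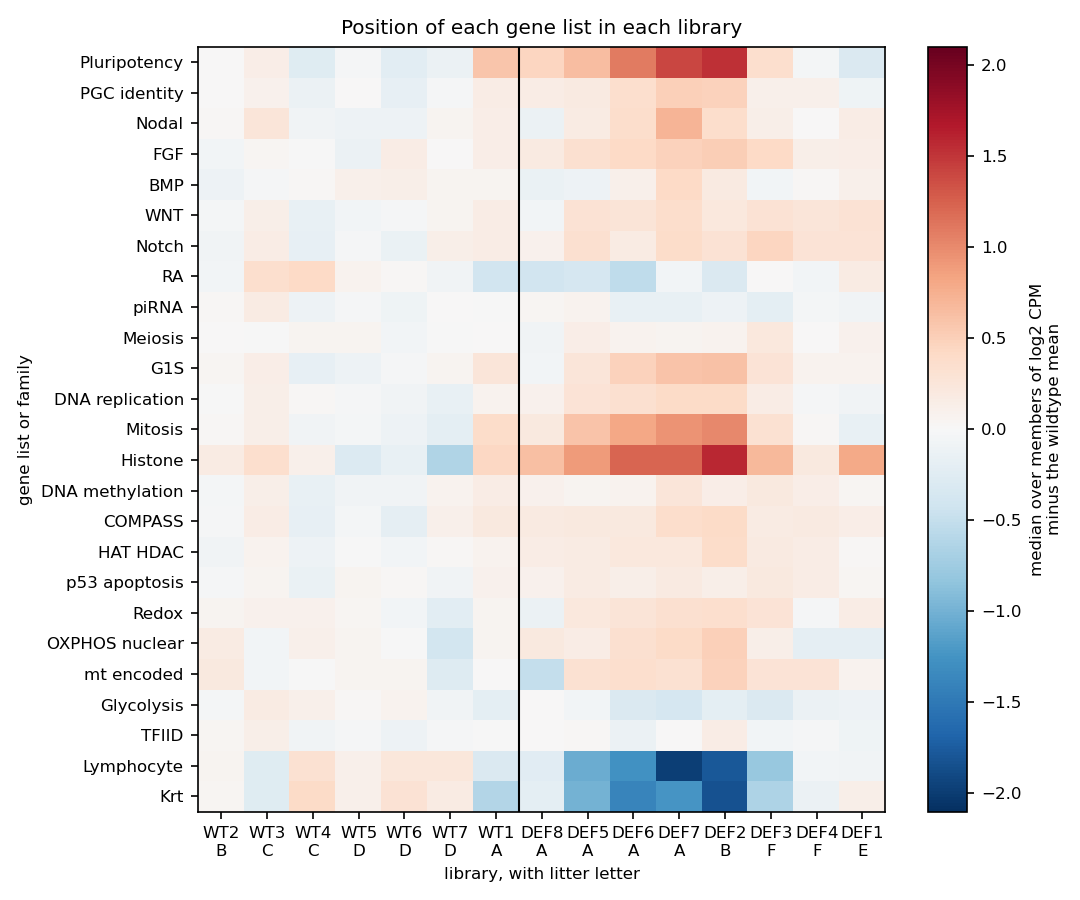
Colours give the median over a list's members of log2 CPM minus the wildtype mean, by library, with the litter letter under each name and a line between the genotypes. Pluripotency genes stand at 1.53 in deficient 2, at 0.59 in wildtype 1, at -0.04 in deficient 4 and at -0.31 in deficient 1.

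Pluripotency genes rose in a graded way over the deficient libraries. Dppa3, which encodes Stella, a maternal and germ cell protein that protects methylation in the early embryo, ran from 82.5 to 476 CPM in wildtype (median 192) and stood at 80.9, 1540, 492, 127, 658, 1010, 1200 and 319 CPM in deficient 1 to 8. Deficient 1, 4 and the library labelled deficient 8 did not exceed the wildtype range, and wildtype 1 held its highest value. The log2 fold change was 1.79 (SE 0.54, adjusted p = 0.0388). Sox2, a core pluripotency factor, rose by 1.95 (SE 0.51, adjusted p = 0.0242), from 1.07 to 6.79 CPM in wildtype to 1.41 to 22.7 CPM in deficient cells. Tet1, which oxidises 5-methylcytosine, rose by 1.77 (SE 0.43), Tcl1, an AKT co-activator of early embryos, by 1.85 (SE 0.45), and Khdc3, of the subcortical complex of oocytes, by 2.49 (SE 0.65). All of these passed with litter in the 24-library fit too. Khdc3 was low throughout wildtype (0.235 to 2.36 CPM) and reached 21.8 CPM in deficient 2 and 13.9 in deficient 7, while deficient 1 held 0.649 CPM.

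Not all of the pluripotency network passed. Nanog, a homeobox factor of that network, ran from 3.61 to 13.6 CPM in wildtype and from 2.16 to 37.6 CPM in deficient cells (log2 fold change 1.45, SE 0.52, adjusted p = 0.0702, and 0.0499 without the library labelled deficient 8). Pou5f1, which encodes OCT4 and whose regulatory sequence drives the sorting reporter, had a log2 fold change of 0.35 (adjusted p = 0.277). Sall4, a zinc finger factor of germ cells and embryonic stem cells, gave 0.02 (adjusted p = 0.948). Lin28a and Otx2 passed at 0.82 and 1.88 but not with litter (adjusted p = 0.186 and 0.0928). The RNA-binding repressor Trim71 rose by 0.79 (SE 0.17), with an adjusted p of 0.0553 with litter.

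Rex2 was the only called member of the pluripotency list that fell. Its CPM ran from 9.19 to 11.8 in wildtype (median 10.6) and from 4.62 to 7.19 in deficient cells (median 4.95), so the groups did not overlap. The log2 fold change was -0.92 (SE 0.14, adjusted p = 0.00315), and -1.08 with litter (adjusted p = 0.00259). Rex2 is a zinc finger gene within a cluster of related genes on chromosome 4, to which the text returns.

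Nodal and activin ligands act through ACVR2 receptors and SMAD2, SMAD3 and SMAD4. Of 24 tested members 5 rose and none fell, and 3 rose with litter. The feedback inhibitor Lefty1, at chr1:180935022-180938400 (GRCm38), stood at 6.99, 2.59, 3.02, 2.08, 3.25, 1.42 and 1.51 CPM in wildtype 1 to 7 and at 3.03, 25.0, 8.05, 2.43, 10.9, 32.6, 26.2 and 10.2 CPM in deficient 1 to 8. Deficient 1 and 4 lay within the wildtype range and the other 6 above it. Its log2 fold change was 2.31 (SE 0.52, adjusted p = 0.0143), and 2.11 with litter (adjusted p = 0.0145).

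The ligands themselves were not called. Nodal had a log2 fold change of 0.45 (adjusted p = 0.333), Gdf3 of 0.85 (adjusted p = 0.136), and the second feedback inhibitor, Lefty2, of 0.93 (adjusted p = 0.176), and the co-receptor Tdgf1, at no more than 2.52 CPM in any library, of -0.32 (adjusted p = 0.602). A receptor gene and a mediator gene shifted less but in every deficient library. Acvr2b ran from 13.5 to 16.6 CPM in wildtype and from 17.5 to 23.6 in deficient cells, and Smad4 from 31.1 to 41.9 and from 43.9 to 69.2. Neither gene overlapped between the groups. Over all genes tested, 155 lay above every wildtype library in all 8 deficient libraries (0.684%) and 128 lay below (0.565%).

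FGF signals pass through MAP kinase, and its activity is read out by ETS factors and by feedback inhibitors. Of 24 tested members 8 rose and none fell, and 3 rose with litter as a random block. The ETS factor Etv4 stood between 1.49 and 2.61 CPM in wildtype and at 2.06, 13.0, 9.16, 2.38, 8.11, 15.4, 13.5 and 2.84 CPM in deficient 1 to 8. Deficient 1 and 4 again lay within the wildtype range. Its log2 fold change was 2.19 (SE 0.41, adjusted p = 0.0077) and 1.84 with litter (adjusted p = 0.0235). Etv5 rose by 1.82 (SE 0.44), the feedback genes Spry4 by 1.34 (SE 0.40), Spred2 by 1.23 (SE 0.32) and Dusp6 by 1.17 (SE 0.36), and the receptor Fgfr1 by 0.33 (SE 0.10). With litter Etv5, Spry4 and Spred2 passed, Dusp6 and Fgfr1 did not (adjusted p = 0.108 and 0.318), and 1 member fell.

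BMP genes moved in both directions. The targets Id1 and Id4, inhibitors of basic helix-loop-helix factors, rose by 1.35 (SE 0.32) and 1.33 (SE 0.31), and the mediator Smad5 by 0.45 (SE 0.12). The ligand Bmp8b, which germ cells make, fell by 0.94 (SE 0.25, adjusted p = 0.0257): it ran from 3.03 to 4.47 CPM in wildtype and from 0.81 to 3.13 CPM in deficient cells. The BMP antagonist Nog and the target Msx2 also fell (-1.40 and -0.68), both without passing with litter (adjusted p = 0.1 and 0.0976). In all, 4 of 24 tested members rose and 3 fell, and with litter as a random block 2 rose and 2 fell.

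WNT, Notch and retinoic acid genes each held changes in part of the pathway. In the WNT list 6 of 38 rose, among them the receptor genes Fzd2 (1.20, SE 0.25) and Fzd9 (1.42, SE 0.37) and the secreted antagonist Sfrp2 (1.46, SE 0.35). The 2 that fell were the effector Lef1 (-0.53, SE 0.16) and the ligand Wnt5a (-0.64, SE 0.18). Fzd9 ran from 0.118 to 1.04 CPM in wildtype and from 0.891 to 1.94 CPM in deficient cells. It could pass the filter on low counts through the deficient group, so its values support no direction by themselves. Lef1 ran from 61.2 to 74.6 CPM in wildtype and from 29.8 to 54.5 CPM in deficient 1 to 7, with 73.9 CPM in the library labelled deficient 8. The feedback target Axin2, which reads canonical WNT activity, was not called (0.30, adjusted p = 0.158), nor was T, the brachyury gene (-0.92, adjusted p = 0.12).

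Of 25 Notch genes 6 rose and none fell. The receptor Notch2 rose by 0.85 (SE 0.17), the ligand Dll3 by 0.91 (SE 0.19) and the target Hes5 by 0.91 (SE 0.20). Hes5 ran from 1.45 to 2.51 CPM in wildtype and from 2.54 to 5.11 CPM in deficient cells, without overlap. Among 19 retinoic acid genes the receptors Rara (0.85, SE 0.16) and Rarg (0.97, SE 0.25) and the binding protein Crabp2 (1.14, SE 0.24) rose, whereas Rarb (-1.23, SE 0.33) and the degrading enzyme gene Cyp26a1 (-1.19, SE 0.36) fell. Stra8, the retinoic acid target that opens meiosis, was not called (-0.47, adjusted p = 0.132), nor was Cyp26b1, the enzyme that clears retinoic acid from the fetal testis (0.16, adjusted p = 0.748). Rarg and Cyp26a1 did not pass with litter (adjusted p = 0.0988 and 0.244). Cyp26a1 stood at no more than 1.27 CPM in any library and could pass the filter on low counts through the wildtype group.

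Germ cell identity genes rose, fell or were not called. The general germ cell markers Ddx4, an RNA helicase, and Dazl, an RNA-binding licensing factor, had log2 fold changes of -0.14 (adjusted p = 0.21) and 0.10 (adjusted p = 0.752), with Ddx4 at 386 to 574 TPM and Dazl at 281 to 683 TPM. Dazl nevertheless varied more widely in deficient cells, from 508 CPM in deficient 1 to 1580 in deficient 2, against 864 to 1060 in wildtype. Nanos2, the RNA-binding factor of male fate, ran from 5.46 to 26.7 CPM in wildtype and stood at 4.98, 60.2, 35.9, 14.6, 35.5, 54.8, 52.7 and 23.2 CPM in deficient 1 to 8. It rose by 1.52 (SE 0.43, adjusted p = 0.0323), and by 1.39 with litter (adjusted p = 0.0239). Nanos3, needed for germ cell survival, rose by 1.5 (SE 0.45), and the LIM homeobox gene Lhx1 by 2.41 (SE 0.47).

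In the same list Ret, the GDNF receptor of spermatogonial stem cells, rose by 1.20 (SE 0.27) but did not pass with litter (adjusted p = 0.219). Dmrt1, a sex-determining transcription factor, passed narrowly (0.58, adjusted p = 0.0498). Nobox, known from oocytes, and Tex101, a germ cell surface protein, fell by 0.88 (SE 0.28) and 0.38 (SE 0.10). The spermatogonial factor Zbtb16 and the primordial germ cell factor Tfap2c were not called (0.18 and -0.12). In all, 9 of 34 tested members rose and 2 fell, with a median of 0.11, and with litter as a random block 3 rose and 1 fell.

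The piRNA pathway and de novo DNA methylation carry out transposon silencing at this age. Piwil4, which encodes MIWI2, the nuclear PIWI protein, ran from 477 to 653 CPM in wildtype and stood at 526, 226, 330, 533, 388, 264, 185 and 471 CPM in deficient 1 to 8. The 6 libraries other than deficient 1 and 4 lay below the wildtype range. It fell by 0.66 (SE 0.19, adjusted p = 0.0357) and by 0.71 with litter (adjusted p = 0.0352). The mRNA export factor Nxf2 fell by 0.63 (SE 0.16), from 1100 to 1400 CPM to 512 to 1130 CPM, and the mitochondrial acyltransferase Gpat2 by 0.50 (SE 0.14), but neither passed with litter (adjusted p = 0.0809 and 0.0941).

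Other piRNA genes were not called: Piwil2 (-0.51, adjusted p = 0.0779), Tdrd9 (-0.53, adjusted p = 0.154), Tdrd1 (-0.21, adjusted p = 0.32) and Mael (-0.15, adjusted p = 0.207). Without the library labelled deficient 8 Piwil2 did pass (adjusted p = 0.0178), since that library held 1080 CPM and deficient 1 to 7 held 407 to 848. The helicase Ddx39b (0.60, SE 0.12), the endonuclease gene Pld6 (0.37, SE 0.11) and Gtsf1l (1.35, SE 0.42) rose. Altogether 4 of 36 rose and 5 fell, and without the library labelled deficient 8 the counts were 4 and 10.

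Among DNA methylation genes, Dnmt3l, the cofactor of de novo methylation in germ cells, ran from 258 to 478 CPM in wildtype, with the lowest value in wildtype 1, and from 52.6 to 351 CPM in deficient cells. Its log2 fold change was -1.03 (SE 0.34, adjusted p = 0.0535), and it passed without the library labelled deficient 8 (adjusted p = 0.0345). Dnmt3c, the rodent enzyme that methylates young transposons, fell by 0.99 (SE 0.26, adjusted p = 0.0232) and with litter (adjusted p = 0.0363). It ran from 33.2 to 60.3 CPM in wildtype and reached 11.8 CPM in deficient 2. Dnmt3a (-0.19), Dnmt1 (-0.05) and Dnmt3b (0.01) were not called. The maintenance factor Uhrf1 was near the threshold (0.63, adjusted p = 0.064). Tet1 and Tet2 rose, the latter by 0.90 (SE 0.23), as did Mbd3 (0.86, SE 0.20) and the co-repressor gene Trim28 (0.62, SE 0.14). The last ran from 164 to 306 CPM in wildtype and from 314 to 430 CPM in deficient cells, without overlap, yet did not pass with litter (adjusted p = 0.178). Mbd3 and Trim28 were lowest in wildtype 4, 5 and 6, at 37.7 to 51.6 CPM and 164 to 185 CPM.

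Meiotic genes showed no single direction: 5 of 48 rose and 4 fell, with a median of 0.13. That is 18.8% called, against 12.9% of all genes tested. Stag3, the meiotic cohesin subunit, fell by 0.69 (SE 0.14, adjusted p = 0.0106), from 562 to 872 CPM in wildtype to 331 to 490 CPM in deficient 1 to 7, with 614 CPM in the library labelled deficient 8. The core cohesin Smc3 fell by 0.33 (SE 0.07), from 315 to 392 CPM to 257 to 311 CPM, without overlap. The synaptonemal complex genes Sycp1 (0.53, SE 0.16) and Syce2 (0.76, SE 0.19) rose, whereas Tex12, of the same central element, fell by 0.48 (SE 0.11). Sycp3, Dmc1, Rec8 and Hormad1 were not called, with log2 fold changes of 0.18, 0.12, 0.01 and -0.26.

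The cell cycle lists held mostly higher calls, but the number of G1 to S calls depended on how litter was treated. Of 36 regulators of the G1 to S transition 12 rose and none fell, and with litter as a random block 7 rose and 1 fell. With litter in the 24-library fit 2 rose and 1 fell, where 9.22% of all genes tested passed. The G1 to S list was thus not called more often than genes at large there. Its median log2 fold change was 0.32, and 0.20 with litter. Cyclin E1 (Ccne1) rose by 0.80 (SE 0.20), cyclin D1 (Ccnd1) by 1.16 (SE 0.31), and Mycn by 1.56 (SE 0.46), and the repressors of the cycle Rb1 (0.57, SE 0.18), Rbl1 (0.60, SE 0.15) and the E2F repressor gene E2f4 (0.77, SE 0.22) rose as well. The inhibitors Cdkn1c (0.88, SE 0.21) and Cdkn1a (0.78, SE 0.22) rose, neither passing with litter (adjusted p = 0.24 and 0.0838). Cdkn1b and Cdkn2b, the latter an inhibitor of CDK4 and CDK6, were not called (-0.21 and 0.16). Ccnd2 was not called either (0.16, adjusted p = 0.704).

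DNA replication genes moved less, with 12 of 60 higher, none lower and a median of 0.19. With litter as a random block 6 were higher. Chaf1b, of the histone chaperone that follows the fork, rose by 1.14 (SE 0.26), the ribonucleotide reductase subunit Rrm2 by 1.07 (SE 0.28), and Tk1, thymidine kinase, by 0.83 (SE 0.20). Rfc5, of the clamp loader, ran from 117 to 138 CPM in wildtype and from 139 to 188 CPM in deficient cells, without overlap. The clamp Pcna (0.60, adjusted p = 0.084) and the helicase genes Mcm2, Mcm5 and Cdc45 (0.37, 0.22 and -0.05) were not called.

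In mitosis, Cdk1, the kinase that drives entry, ran from 14.6 to 38.2 CPM in wildtype and stood at 25.1, 77.4, 46.8, 24.8, 58.4, 77.1, 88.9 and 32.4 CPM in deficient 1 to 8. It rose by 1.09 (SE 0.28, adjusted p = 0.0217), and by 1.00 with litter (adjusted p = 0.0213). The Polo kinase gene Plk1 rose by 0.75 (SE 0.18), the proliferation marker Mki67 by 0.92 (SE 0.25), cyclin A2 (Ccna2) by 0.82 (SE 0.22), the kinetochore gene Cenph by 0.81 (SE 0.18), the checkpoint kinase gene Bub1 by 0.60 (SE 0.13), and the kinase gene Melk by 0.88 (SE 0.20). Cyclin B1 (Ccnb1) and Top2a missed the threshold (0.62, adjusted p = 0.0892, and 0.41, adjusted p = 0.0603). The 1 mitotic gene that fell was the kinase gene Pbk, by 0.30 (SE 0.09). In wildtype 1 the list stood 0.39 above the wildtype mean, and in its littermates deficient 5, 6 and 7 at 0.60, 0.82 and 0.94.

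The 240 bases before the RefSeq start of 3 mitotic genes are shown because CCAAT and CHR elements are known in such promoters. Cdk1 and Plk1 were called and Ccnb1 was not. Capitals mark any of 7 motifs searched on both strands, namely the CCAAT box (CCAAT), the GC box (GGGCGG), the CHR (TTTGAA), the TATA box (TATAAA), the E box (CACGTG), an ETS core (CCGGAA) and a CRE core (TGACGT), some of which can overlap. Sequences are from RefSeq on GRCm38.p6 and lie at chr10:69352913-69353152 (minus strand), chr7:122159195-122159434 (plus strand) and chr13:100786487-100786726 (minus strand).
Cdk1: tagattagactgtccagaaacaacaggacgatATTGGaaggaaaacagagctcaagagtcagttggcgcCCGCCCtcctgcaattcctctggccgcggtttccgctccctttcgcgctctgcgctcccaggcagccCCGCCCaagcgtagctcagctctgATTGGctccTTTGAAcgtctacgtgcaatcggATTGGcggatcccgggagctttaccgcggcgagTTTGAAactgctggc
Plk1: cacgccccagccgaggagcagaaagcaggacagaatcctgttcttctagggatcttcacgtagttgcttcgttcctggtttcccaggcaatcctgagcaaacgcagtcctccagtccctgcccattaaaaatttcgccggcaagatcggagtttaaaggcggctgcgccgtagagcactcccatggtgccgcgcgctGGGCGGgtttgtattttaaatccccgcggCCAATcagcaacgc
Ccnb1: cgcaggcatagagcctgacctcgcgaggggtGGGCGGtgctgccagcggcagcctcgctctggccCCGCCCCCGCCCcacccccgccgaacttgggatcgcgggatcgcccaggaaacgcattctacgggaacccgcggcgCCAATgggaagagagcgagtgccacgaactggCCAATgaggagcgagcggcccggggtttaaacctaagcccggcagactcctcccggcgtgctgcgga
The Cdk1 window held 3 CCAAT boxes and 2 CHR matches, the nearest 15 bases before the start. The Ccnb1 window held 2 CCAAT boxes and the Plk1 window 1, and neither held TTTGAA. Of 55 mitotic genes with a promoter entry, 70.9% held a CCAAT box within 250 bases and 29.1% a CHR, beside 34.5% and 16.3% of all 27025 promoters. A match is a match of letters and not a measured binding site.

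Replication-dependent histone genes lie in clusters of near-identical copies, and their transcripts normally lack a poly(A) tail, so read assignment between copies is uncertain and the values depend on how RNA was selected. Hist1h2bq stood at 0.591, 0.550, 0.289, 0.314, 0.314, 0.516 and 0.329 CPM in wildtype 1 to 7, and between 1.17 and 2.18 CPM in the 8 deficient libraries, without overlap. The log2 fold change was 2.01 (SE 0.24, adjusted p = 0.000827), and 2.33 with litter (adjusted p = 0.00462). With no more than 0.591 CPM in wildtype, Hist1h2bq could pass the filter on low counts through the deficient group. Its values therefore support no direction by themselves. The more abundant Hist1h2bc ran from 20.8 to 73.9 CPM in wildtype and from 138 to 293 CPM in deficient 1 to 7, with 53.6 CPM in the library labelled deficient 8. It rose by 1.98 (SE 0.32, adjusted p = 0.00395). Hist3h2a, an H2A gene outside the main cluster, rose by 1.32 (SE 0.23), also with the library labelled deficient 8 (2.89 CPM) inside the wildtype range of 2.07 to 3.26.

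Over the histone genes that passed the filter on low counts, the library order was not that of the pluripotency genes. Deficient 1 had a family median of 0.79 above the wildtype mean, against -0.31 for the pluripotency list and -0.16 for the mitotic list, and deficient 4 had 0.21. That contrast was not tested. Histone members low in wildtype could pass the filter through the deficient group, so the median in deficient 1 supports no difference by itself. H2afx, which encodes the variant phosphorylated at DNA breaks, rose by 1.37 (SE 0.20, adjusted p = 0.00255), from 21.8 to 38.8 CPM to 39.2 to 92.5 CPM, without overlap.

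Several chromatin genes changed in all 8 deficient libraries, while others did not. Kmt2d, the H3K4 methyltransferase of enhancers, stood at 117, 64.3, 82.0, 54.2, 62.9, 52.5 and 79.6 CPM in wildtype 1 to 7 and at 118, 193, 143, 151, 149, 184, 191 and 132 CPM in deficient 1 to 8. The groups did not overlap, though wildtype 1 lay just under deficient 1. It rose by 1.11 (SE 0.16, adjusted p = 0.00274). Kdm6b, an H3K27 demethylase, rose by 0.96 (SE 0.13, adjusted p = 0.00221), from 9.82 to 17.0 CPM to 20 to 33.1 CPM. Of 26 MLL and COMPASS genes 6 rose, including the H3K36 methyltransferase Setd2 (0.67, SE 0.12), and 1 fell, Cxxc1, the CpG-binding subunit of SETD1 complexes.

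Cxxc1 ran from 176 to 222 CPM in wildtype and from 99.4 to 144 CPM in deficient 1 to 7, and stood at 233 CPM in the library labelled deficient 8. Its log2 fold change was -0.60 (SE 0.15) with that library and -0.78 without it. Kmt2a was not called (0.32, adjusted p = 0.0815).

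Acetylation and co-repressor genes rose in 10 of 38 cases and fell in 2. The bromodomain reader Brd2 rose by 0.77 (SE 0.14), from 221 to 341 CPM to 300 to 605 CPM, with its highest values in deficient 1 and deficient 4, and 300 CPM in the library labelled deficient 8. The deacetylase gene Hdac7 rose by 0.77 (SE 0.14) and did not overlap between groups. Among remodellers, Arid1a of SWI/SNF rose by 0.91 (SE 0.18), and Ep400 of the TIP60 complex by 0.54 (SE 0.08, adjusted p = 0.00231), with 185 to 238 CPM in wildtype and 277 to 331 CPM in deficient cells.

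Polycomb genes moved in both directions. Phc1, of the PRC1 complex, rose by 0.51 (SE 0.08) without overlap, from 110 to 138 CPM to 154 to 198 CPM, and Pcgf6 (0.74) and Mtf2 (0.56) rose. Pcgf6 stood at 22.9, 24.1 and 39.4 CPM in wildtype 4, 5 and 6 and at 57.3 to 60.2 CPM in the other wildtype libraries. In deficient cells it ran from 58.1 to 94.9 CPM, so its size rests in part on those wildtype libraries. Eed, a PRC2 core subunit, and the deubiquitinase gene Bap1 fell by 0.28 (SE 0.09) and 0.31 (SE 0.10), while the other PRC2 core genes Ezh2 and Suz12 were not called (0.26 and 0.33). The H3K9 reader gene Cbx3 rose by 0.93 (SE 0.22), and the demethylase gene Kdm4a fell by 0.58 (SE 0.14).

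Apart from Taf4b, 2 of 18 tested genes of TFIID subunits and TBP relatives rose and 1 fell. That is 16.7% called, against 12.9% of all genes tested. The median of the list was -0.04, beside 0.02 over all genes tested. Taf12, whose product pairs with TAF4 and TAF4B through histone folds, ran from 25.9 to 33.3 CPM in wildtype and from 40.7 to 47.3 CPM in deficient 1 to 7, with 30.9 CPM in the library labelled deficient 8. It rose by 0.55 (SE 0.10, adjusted p = 0.00767), and by 0.67 with litter (adjusted p = 0.00592). Taf13 rose by 0.77 (SE 0.18), and Taf1, the largest subunit, fell by 0.33 (SE 0.10) but not with litter (adjusted p = 0.0625). The paralogue Taf4 (0.28, adjusted p = 0.147), Tbp (-0.11) and its relative Tbpl1 (-0.23) were not called.

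Outside TFIID, Gtf2a1l, the germ cell form of a TFIIA subunit, fell by 0.69 (SE 0.20), and Gtf2h5, of TFIIH, rose by 0.58 (SE 0.18). In Mediator 5 of 32 rose, among them Med22 (0.40, SE 0.09) and Med20 (0.63, SE 0.17), and Med24 fell by 0.50 (SE 0.14). That is 18.8% called, against 12.9% of all genes tested. With litter 3 of 32 rose and none fell, in a fit where 9.22% of all genes tested passed.

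Genes of p53 signalling and apoptosis did not move as 1 block: 7 of 37 rose and 3 fell, and 2 rose and 3 fell with litter as a random block. Pmaip1, which encodes the pro-apoptotic NOXA, ran from 32.5 to 70.2 CPM in wildtype and from 38.6 to 345 CPM in deficient cells, and rose by 1.86 (SE 0.42, adjusted p = 0.0141). The p53 inhibitor Mdm4 rose by 0.46 (SE 0.09) and its partner Mdm2 fell by 0.41 (SE 0.08), both without overlap between groups. Fas, a death receptor, fell by 1.23 (SE 0.25), and Trp63, the oocyte guardian of the family, by 0.83 (SE 0.19). The apoptosis effectors Bax and Bbc3 were not called (0.41 and 0.34).

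Immediate early and heat shock genes differed between the fits. Of 33 tested members 3 rose and 2 fell, or 15.2% called against 12.9% of all genes tested. In the 24-library fit with litter 9 of 34 rose and none fell, and with litter as a random block over 15 libraries 1 rose and 1 fell. The near-identical heat shock genes Hspa1a and Hspa1b were called lower (-1.44 and -1.04) but gave 0.08 and 0.36 with litter. Their reads may be split between the copies. Hspa1b stood at 102 CPM in wildtype 1 and at 84.3 to 133 CPM in its littermates, and at 337 CPM in wildtype 2 and 329 CPM in its littermate deficient 2. Fos, an immediate early transcription factor, was not called (0.03) but rose by 0.77 with litter (adjusted p = 0.00765).

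The lactate dehydrogenase subunit genes moved in opposite directions. Ldhb ran from 25.8 to 80.7 CPM in wildtype and stood at 50.3, 373, 158, 48.0, 181, 341, 495 and 85.4 CPM in deficient 1 to 8, with a log2 fold change of 2.07 (SE 0.45, adjusted p = 0.0135). Ldha ran from 123 to 250 CPM in wildtype and from 49.6 to 177 CPM in deficient cells, and fell by 0.81 (SE 0.23, adjusted p = 0.0296). Both passed with litter. The kinase gene Pdk1, which holds pyruvate dehydrogenase off, rose by 1.00 (SE 0.29), and the phosphofructokinase gene Pfkl and the glycogen synthase gene Gys2 fell by 0.68 (SE 0.19) and 2.09 (SE 0.46). In the glycolysis list 2 of 29 rose and 4 fell, or 20.7% called against 12.9% of all genes tested.

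Of 30 antioxidant genes 8 rose and 1 fell, led by Gpx1 (1.51, SE 0.33), Prdx2 (0.73, SE 0.19) and Prdx1 (0.54, SE 0.12). Sod1, cytosolic superoxide dismutase, rose by 0.35 (SE 0.09), from 191 to 242 CPM to 247 to 361 CPM, without overlap. Of 87 nuclear-encoded respiratory chain subunits 9 rose and 1 fell, or 11.5% called against 12.9% of all genes tested. The family was thus not called more often than genes at large. Called members included Cox6b2, a germ cell isoform of a complex IV subunit (1.45, SE 0.26, without overlap), Ndufb10 (0.60, SE 0.10) and Uqcr11 (0.69, SE 0.16). All 13 mitochondrially encoded protein genes had a positive log2 fold change but 1 passed, mt-Nd6 (0.39, SE 0.09). Without the library labelled deficient 8, which held the lowest mitochondrial share, 8 of the 13 passed. Among amino acid response genes Asns fell by 0.61 (SE 0.14) and Trib3 rose by 0.98 (SE 0.23).

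**Figure D5:**
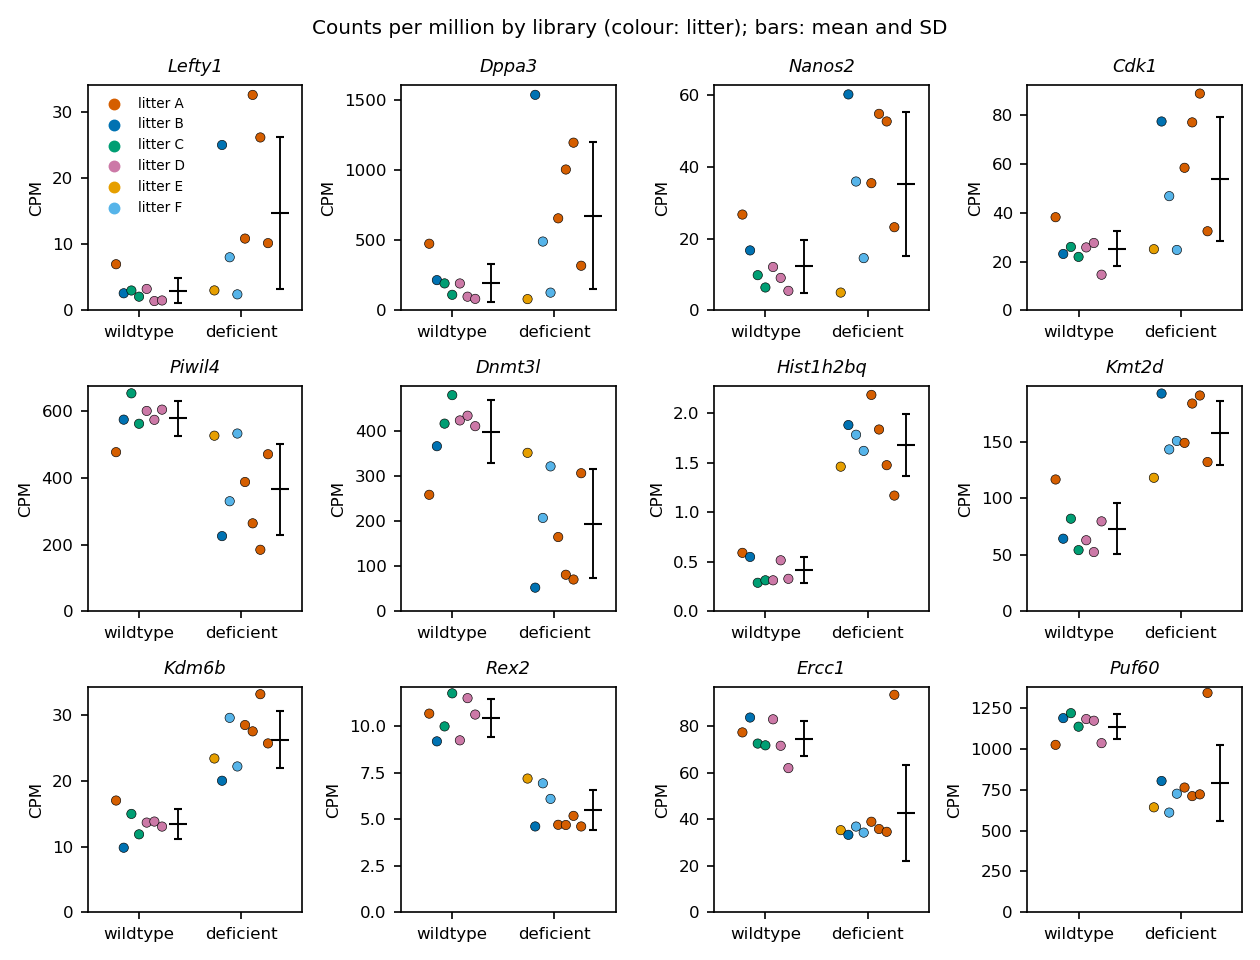
Points give CPM of 12 genes by library, coloured by litter, with the mean and SD of each group beside them; axes start at 0. Lefty1, Dppa3, Nanos2 and Cdk1 spread over the deficient libraries with deficient 1 and 4 at wildtype levels, Hist1h2bq, Kmt2d, Kdm6b and Rex2 separate the groups in full, and Ercc1 and Puf60 separate deficient 1 to 7 with the library labelled deficient 8 at or above wildtype.

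Among the largest changes downward, Cd22, at chr7:30865402-30880342 (GRCm38), ran from 3.00 to 10.2 CPM in wildtype and from 0.428 to 2.72 CPM in deficient cells, and Unc45b, a myosin chaperone, from 5.12 to 14.1 and from 0.322 to 4.54 CPM. Neither gene overlapped between the groups. The log2 fold changes were -2.27 (SE 0.37, adjusted p = 0.00416) and -2.16 (SE 0.36, adjusted p = 0.00497). Sult2a5, Kcnn4, Nrap, Slc34a2 and Dmkn fell by 1.92, 1.89, 1.88, 1.86 and 1.85. Gdpd3 fell by 2.00 but did not pass with litter (adjusted p = 0.226). Upward, besides the genes above, Fn3krp rose by 2.03 (SE 0.43), Tor3a by 1.99 (SE 0.47) and Dmrtc1b by 1.99 (SE 0.46). Fn3krp had its highest values in deficient 4, 3 and 1 (30.5, 19 and 17.4 CPM, against at most 7.58 CPM in the others), a different order from Lefty1 or Dppa3, and did not pass with litter (adjusted p = 0.198).

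The smallest p-value belonged to Cirbp, the cold-inducible RNA-binding protein gene, which was chosen for mention after its value was seen. It ran from 46.2 to 79.1 CPM in wildtype and from 112 to 140 CPM in deficient cells and rose by 1.00 (SE 0.11, adjusted p = 0.000579), equally with litter (1.00, adjusted p = 0.0013). Zinc finger genes gave others of this kind: Zfp580 rose by 1.34 (SE 0.20), and Zfp51 fell by 0.57 (SE 0.09), from 32.3 to 41.5 CPM to 22.4 to 27.2 CPM. A pair of germ cell antigen genes on the X chromosome, Magea10 and Magea8, also fell without overlap (-0.73 and -0.52), and 4 of 19 genes of that family fell and none rose.

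Of the 1724 genes called higher, 149 did not overlap between the groups and in 861 (49.9%) both deficient 1 and deficient 4 lay within the wildtype range. Of the 1189 called lower, the corresponding numbers were 122 and 477 (40.1%). Deficient 1 and 4 were chosen for this count after their values were seen, and other pairs were not counted.

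Rex2 and 3 more zinc finger genes without overlap between the groups, Zfp979, Zfp980 and Zfp600, lie within chr4:145670685-147642513 (GRCm38), a stretch chosen after their values were seen. Zinc finger genes elsewhere, such as Zfp51 and Zfp580 above, also did not overlap. Zfp979 fell by 0.59 (SE 0.10), Zfp980 by 1.13 (SE 0.22) and Zfp600 by 0.84 (SE 0.17), and all 4 passed with litter. Of 37 genes tested in that stretch 5 fell and none rose, 29 had a negative log2 fold change, and the median was -0.28. These genes are close copies of one another, so reads could be shared between them. Chromosome 4 as a whole had 106 genes higher and 59 lower of 1283.

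A further set of genes set the library labelled deficient 8 apart. In 221 genes deficient 1 to 7 all lay below every wildtype library and the library labelled deficient 8 did not, and in 181 genes the same held upward. The corresponding numbers were 140 and 115 with deficient 1 as the exception, 45 and 38 with deficient 4, and at most 20 and 18 with any other deficient library. Ercc1, a nucleotide excision repair endonuclease subunit, stood at 77.3, 83.7, 72.5, 71.7, 82.9, 71.6 and 62.0 CPM in wildtype 1 to 7, between 33.3 and 38.9 CPM in deficient 1 to 7, and at 93.5 CPM in the library labelled deficient 8. Puf60, a splicing factor, ran from 1020 to 1220 CPM in wildtype and from 609 to 802 CPM in deficient 1 to 7, and held 1340 CPM in the library labelled deficient 8.

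A like pattern held for Rab11b, of recycling endosomes, Larp7, which stabilises 7SK RNA, and Ap1m1, of a clathrin adaptor, with 289, 210 and 355 CPM in the library labelled deficient 8 against at most 191, 136 and 223 CPM in deficient 1 to 7. Upward, Caprin2 and Tsga10 ran from 142 to 212 CPM and from 19.9 to 25.5 CPM in deficient 1 to 7, against 108 and 12.2 CPM in the library labelled deficient 8 and at most 110 and 15.2 CPM in wildtype. These genes were chosen on the values given and are described without a test. In deficient 1 and 4, where the graded genes stood at wildtype levels, Ercc1 stood at 35.3 and 34.3 CPM.

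Promoter windows of 4 further genes show how unlike their sequences are: Kmt2d, higher in all 8 deficient libraries; Ercc1 and Larp7, lower in deficient 1 to 7; and Unc45b, lower in all 8. They lie at chr15:98871206-98871445 (minus strand), chr7:19344831-19345070 (plus strand), chr3:127553350-127553589 (minus strand) and chr11:82911013-82911252 (plus strand) on GRCm38.p6, with the same motifs in capitals.
Kmt2d: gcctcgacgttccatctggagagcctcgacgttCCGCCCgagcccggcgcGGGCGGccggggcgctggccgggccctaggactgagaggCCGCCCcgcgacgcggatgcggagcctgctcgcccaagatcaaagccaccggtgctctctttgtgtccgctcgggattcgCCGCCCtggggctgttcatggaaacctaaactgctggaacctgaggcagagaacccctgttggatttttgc
Ercc1: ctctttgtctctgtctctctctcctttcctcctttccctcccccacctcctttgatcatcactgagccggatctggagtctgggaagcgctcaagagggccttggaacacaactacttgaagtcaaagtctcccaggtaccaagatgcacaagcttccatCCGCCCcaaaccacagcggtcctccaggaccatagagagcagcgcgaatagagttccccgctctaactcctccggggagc
Larp7: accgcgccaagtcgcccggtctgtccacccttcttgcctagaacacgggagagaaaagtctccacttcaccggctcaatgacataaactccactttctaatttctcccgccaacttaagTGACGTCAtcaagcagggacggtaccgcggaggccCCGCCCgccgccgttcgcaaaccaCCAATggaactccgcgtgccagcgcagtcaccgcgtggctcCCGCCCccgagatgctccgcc
Unc45b: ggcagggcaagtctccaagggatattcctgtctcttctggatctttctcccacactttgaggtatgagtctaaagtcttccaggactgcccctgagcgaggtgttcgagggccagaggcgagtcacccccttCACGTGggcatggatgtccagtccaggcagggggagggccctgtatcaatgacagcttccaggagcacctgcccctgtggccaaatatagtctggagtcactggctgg
The Kmt2d window held 4 GC boxes and no other motif, Ercc1 1 GC box, and Larp7 2 GC boxes, 1 CCAAT box and a CRE core on each strand. Unc45b held 1 E box. A GC box lay within 250 bases before the start in 65.9% of the 1289 higher genes with an entry, in 51.1% of the 14488 tested genes, in 39.9% of the 814 lower genes and in 32.9% of all promoters. A CCAAT box lay in 34.8% of the higher, 34.5% of the lower and 35.9% of the tested genes. These shares are descriptions, in which base composition and expression level were not matched.

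Markers of other testis cells were present, and the ranges of their summed levels overlapped between the groups. Medians over single markers moved with the graded genes in some lists. Lymphocyte markers stood at -1.78, -1.04, -1.27 and -1.97 in deficient 2, 5, 6 and 7 and at -0.08 and -0.06 in deficient 1 and 4 (log2 CPM minus the wildtype mean). Mesonephric and coelomic markers stood at -0.48, -0.68, -0.9 and -1 and at -0.08 and -0.11 in the same libraries. The part of these cells in the pluripotency and mitotic results was not tested. Summed CPM of 19 Sertoli markers ran from 362 to 751 in wildtype and from 297 to 773 in deficient libraries, that of 10 Leydig markers from 623 to 2250 and from 255 to 1910, and that of 17 interstitial markers from 249 to 331 and from 190 to 361. Endothelial (12 markers) sums ran from 105 to 143 and from 91.8 to 141, macrophage (14) sums from 22.2 to 59.7 and from 17.5 to 46.2, and mesonephric and coelomic (12) sums from 85.1 to 112 and from 83.6 to 174. Red cell markers (11) varied most, from 83.7 to 1640 in wildtype and from 49.1 to 4740 in deficient libraries. No marker of these lists was at 0 in all libraries. The Leydig product Insl3 was listed at 222 to 1080 TPM in wildtype and 40.2 to 733 TPM in deficient cells, and Sox9 of Sertoli cells at 0.877 to 4.55 TPM, beside 386 to 574 TPM for Ddx4. Fewer cells of a type and less RNA per cell cannot be told apart in such sorted pools.

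Of 13 tested lymphocyte markers 4 fell and none rose (median -0.64), Cd22 among them. The pan-leukocyte marker Ptprc was listed at 0.0544 to 1.36 TPM and was not called (0.35, adjusted p = 0.608), and the summed lymphocyte markers ran from 144 to 163 CPM in wildtype and from 114 to 174 CPM in deficient libraries. Keratin genes fell in 4 of 39 cases and rose in 1 (median -0.74), or 12.8% called against 12.9% of all genes tested. Among 12 endothelial markers 1 rose, Pecam1, which germ cells also express (0.76, adjusted p = 0.0418), and 1 fell. Of 17 interstitial markers 1 fell, the matrix gene Postn (-1.06, SE 0.20, adjusted p = 0.00702, without overlap), of 13 macrophage markers 1 fell, of 11 mesonephric and coelomic markers 2 rose and 1 fell, and of 19 Sertoli markers 1 rose. Amh, of Sertoli cells, was not called (1.48, adjusted p = 0.0644).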

How the data were processed

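RNA was measured in 7 wildtype and 8 deficient libraries of sorted E16.5 prospermatogonia. The deposited gene counts were made by the authors with HISAT2 2.1.0 and featureCounts (Subread 1.6.2) on GRCm38, and the deposited TPM values with StringTie 1.3.3b, per the submitters' processing notes. Counts were tested with edgeR 4.0.16 (TMM scaling, filterByExpr, robust quasi-likelihood test) in R 4.3.3, with Benjamini-Hochberg adjustment over all genes tested and a threshold of 0.05. Log2 fold changes are deficient minus wildtype. The authors' deposited TPM were tested with limma 3.58.1 on log2(TPM + 1), and DESeq2 1.42.0 was an alternative. CPM are counts scaled by TMM library size. Litters, from the labels, entered as covariate, random block or sums. Genes named are Taf4b, marked list members, up to 3 called genes a direction with the smallest p per list, and the 10 largest changes a direction with average log2 CPM of at least 1 and the same sign across litter fits and without the library labelled deficient 8. Some genes that the rule allows are not reported here. Genes named outside the rule are said to be chosen after their values were seen. The comparison and the lists were chosen with earlier results of these data known. Libraries are embryos that share litters, so p-values that ignore litter treat littermates as independent. The edgeR scripts were tested on simulated data. Library totals limit precision for genes near 1 CPM.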

Additional observations from a re-analysis of the deposited data

Results flagged for a closer look

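Of 442 groups of 7 or 8 values checked with Dixon's test, 33 held a library far from the others of its group, and chance flags about 1 in 20 groups. Ranges in parentheses are those of the other libraries of the group.

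The library labelled deficient 8 held 13 of the 33. Taf4b had singled that library out, and Ercc1, Puf60, Rab11b, Larp7, Ap1m1 and Tsga10 were described above for their values in it. The flags of these genes were thus fixed in advance, and the tally cannot be set against the chance rate. High values were Taf4b at 134 CPM (50.4 to 68.8), Sall4 at 306 CPM (204 to 247), Cxxc1 at 233 CPM (99.4 to 144), Ercc1 at 93.5 CPM (33.3 to 38.9). Also high were Puf60 at 1340 CPM (609 to 802), Rab11b at 289 CPM (151 to 191), Larp7 at 210 CPM (114 to 136), Ap1m1 at 355 CPM (161 to 223). Low values were Taf12 at 30.9 CPM (40.7 to 47.3), Ndufb10 at 112 CPM (147 to 163), Tsga10 at 12.2 CPM (19.9 to 25.5). Mitochondrially encoded protein genes took 2.21% of its counts (3.25 to 3.54%), and rRNA genes 1.32% (0.655 to 0.93%).

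Wildtype 1 held 11. It was high for Lefty1 at 6.99 CPM (1.42 to 3.25), Etv5 at 55 CPM (21.4 to 33.4), Il17rd at 71.7 CPM (44.7 to 55). It was also high for Fzd2 at 20.6 CPM (8.42 to 12.8), Sox2 at 6.79 CPM (1.07 to 2.82), Dppa3 at 476 CPM (82.5 to 216), Tcl1 at 45.6 CPM (13.2 to 25.1). Further high values were Tet1 at 42.2 CPM (16.3 to 26), Nanos3 at 72.4 CPM (15.9 to 40), Mki67 at 24.6 CPM (10.7 to 14), and it was low for Asns at 225 CPM (320 to 388). In each of these 11 genes wildtype 1 lay on the side to which the deficient mean moved.

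The other 9 lay in several libraries. Deficient 1 was high for Wnt5a at 16 CPM (7.4 to 10.4), Kcnn4 at 12.8 CPM (1.57 to 3.67), deficient 5 for Dmc1 at 28.6 CPM (17.1 to 21.7), Gdpd3 at 4.17 CPM (0.763 to 1.89) and deficient 2 for Hdac7 at 42.5 CPM (20.8 to 30.1). Wildtype 3 was high for Mcm5 at 239 CPM (144 to 180), Dnmt1 at 230 CPM (145 to 182), and wildtype 7 was low for Uqcr11 at 140 CPM (205 to 253) and high for Zfp600 at 11.4 CPM (10 to 10.6).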

How the results depend on the processing

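The count of 2913 genes called moved by over 1.5 times under many settings. It was 4467 with DESeq2's Wald test, 1581 with no filter on low counts and 774 when a size of 1 on the log2 scale was also required. With litter as a covariate over the 15 libraries edgeR called 0 genes, with 3820 at an unadjusted p under 0.05. Litters holding both genotypes gave 0 (3623 at an unadjusted p under 0.05), October libraries 0 (1308), May libraries 108, month as a covariate 44, and sums per litter and genotype 1. Leaving out litter A, B, C, D or E gave 420, 535, 348, 4 and 5458. Leaving out 1 library at a time gave 1067 (without wildtype 4) to 5458 (without deficient 1). Settings chosen after seeing the data gave 1 for libraries with high Gm23935, 13 with log2 Gm23935 TPM as a covariate and 145 without wildtype 4, 5, 6 and the library labelled deficient 8. DESeq2's size factors (2848), the random litter block (2155) and the TPM fits with a pseudocount of 1 (3379) or 0.1 (3073) stayed within 1.5 times.

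Replicate numbers do not pair the samples: of 7 same-numbered pairs 3 had a correlation over 0.1 (range -0.507 to 0.174), and 1 sample correlated best with its own number. With the number as a replicate block 854 genes were called.

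Taf4b kept its direction under every setting run. It did not pass with litter over 15 libraries (-1.88, adjusted p = 0.225), in litters holding both genotypes (-1.80, adjusted p = 0.301), in October (-1.83, adjusted p = 0.82) or in May (-1.47, adjusted p = 0.172). It gave -1.74 with the replicate block (adjusted p = 0.0205) and -1.84 to -1.50 with 1 library left out.

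Of 217 genes computed as named, 165 were called, 113 of these also with litter over 24 libraries and 14 with month. Directions reversed in 4 cases: Hspa1a with litter over 24 libraries (0.08), Hspa1b with litter over 24 (0.36) and 15 libraries (0.08), and Fos in May libraries (-1.23). The cause of these differences was not tested.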
